A study of Homo sapiens with 6 samples.

Results

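Aquaporins are membrane channels, and 6 of their genes (AQP1, AQP2, AQP3, AQP5, AQP6 and AQP11) are described here in SW839 cells with and without knockdown of RNF25. The 6 genes were chosen by symbol among the 30267 genes of one table of normalized counts, with earlier results of the same contrast known. AQP5 in particular was selected on its near-zero counts in control cells and its clear counts after knockdown. Differences of the members between the groups are therefore a description and carry no test. SW839 is an established renal cell carcinoma line. The 3 shRNF25 libraries come from cells carrying an RNF25 short hairpin, and the 3 shControl libraries from cells carrying the pLKO vector. Delivery was by lentivirus with puromycin selection, as the study's methods describe. The hairpin libraries share 1 hairpin name (shRNF25B). The treatment text names the RNF25 hairpin plasmid for every sample, controls included, so the groups rest on titles, genotype labels and library names.

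Aquaporins let water cross membranes along an osmotic gradient. In the kidney, AQP1 serves water reabsorption in the proximal tubule. AQP2 is the water channel that vasopressin, through cAMP and protein kinase A, moves to the apical membrane of collecting duct cells. AQP3 lies in the basolateral membrane of the same cells and also passes glycerol, and AQP6 is an intracellular channel of intercalated cells. AQP5 is best known from salivary, lacrimal and airway glands and alveolar epithelium, where it serves fluid secretion. AQP11 is a distant member of the family found in the endoplasmic reticulum.

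The libraries held 18647460 to 19943154 reads on genes. Genes with a read numbered 25247 to 25683 in the shControl libraries and 26581 to 27052 in the shRNF25 libraries. RNF25 had normalized counts of 694.2, 533.5 and 536.4 in shControl and 214.1, 245.7 and 265.0 in shRNF25, so the labels and the targeted gene matched. Across tested genes, the shRNF25 libraries resembled each other more (Pearson r of 0.994 for each pair) than the shControl libraries did (0.976 to 0.987). Library names differ in form between the groups, so a batch aligned with them and the knockdown cannot be told apart. Of the kidney and carcinoma markers looked for, keratins KRT8 and KRT18 and the cadherin CDH1 were abundant in every library. PAX8, a renal lineage factor, averaged 127.4 and 94.0 normalized counts in shControl and shRNF25. CA9, a hypoxia-induced carbonic anhydrase common in clear cell carcinoma, averaged 23.6 and 4.94. Its libraries held 7.74, 12.3 and 50.7 against 8.20, 1.85 and 4.77, so the groups overlapped, and it was too low to test. VIM, an intermediate filament gene on the same list, rose by a log2 fold change of 1.31 (limma adjusted p = 0.00805). By the criteria given below, VIM was the 1 gene called higher of 7 tested, and 0 were called lower. Of the 9 listed markers, 3 were above the controls in every shRNF25 library (VIM, KRT8 and CDH2) and 3 were below (CDH1, EPCAM and PAX8). The latter 3 were at -0.48, -0.32 and -0.45 (limma adjusted p = 0.0129, 0.0742 and 0.110), and CDH1 missed the fold-change criterion. KRT8 and CDH2 were at 0.38 and 0.28 (limma adjusted p = 0.111 and 0.117). PAX2 and the proximal tubule receptor LRP2 were not among the listed genes.

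AQP2, AQP5 and AQP6 stand in a row on the plus strand of chromosome 12 in GENCODE 29 (GRCh38). AQP2 spans 49950741 to 49958881, AQP5 follows after 2988 bases and spans 49961870 to 49965681, and AQP6 follows after another 1512 bases and spans 49967194 to 49977139. The sequences upstream of AQP5 and AQP2 are shown because both genes went from almost no reads to countable reads. They are the 250 bases before each RefSeq start (GRCh38.p14, plus strand), chr12:49961622-49961871 for AQP5 and chr12:49950487-49950736 for AQP2. Capitals mark GC boxes (GGGCGG on either strand), the E-box CACGTG and the TATA box TATAAA.
AQP5: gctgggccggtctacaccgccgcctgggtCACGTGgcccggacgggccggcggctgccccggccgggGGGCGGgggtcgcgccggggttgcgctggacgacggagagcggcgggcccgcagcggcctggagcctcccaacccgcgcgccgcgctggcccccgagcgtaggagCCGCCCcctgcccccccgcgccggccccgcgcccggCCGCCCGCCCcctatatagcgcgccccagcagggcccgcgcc
AQP2: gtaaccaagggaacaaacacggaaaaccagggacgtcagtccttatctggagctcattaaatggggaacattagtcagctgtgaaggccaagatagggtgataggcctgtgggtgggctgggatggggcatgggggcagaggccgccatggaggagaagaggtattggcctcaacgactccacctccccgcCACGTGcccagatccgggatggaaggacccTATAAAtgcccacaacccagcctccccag
The AQP5 window held 4 GC boxes, of which a pair overlaps, and 1 E-box 221 to 216 bases before the start. The AQP2 window held 1 E-box 59 to 54 bases and 1 TATA box 29 to 24 bases before the start. Among 35116 RefSeq promoter windows of the same length, 42.6% held a GC box, 6.34% the E-box and 10.7% the TATA box. The windows differed in composition, with 84.4% G and C and 41 CpG dinucleotides for AQP5 against 57.6% and 7 for AQP2, where the medians of all windows were 58% and 11. Neither window held a match to AP-1 (TGANTCA), to the cAMP response element (TGACGTCA), to the NF-κB motif or to the tonicity element, which occurred in 6.57%, 1.65%, 5.21% and 4.16% of all windows. Only full-length matches were counted, and the AQP2 window does hold GACGTCA, the cAMP response element sequence without its first letter. The AQP5 window likewise holds TATATA between its last GC box and the start, which is the TATA box sequence with a single letter changed. Such matches are letters only and say nothing about binding. The promoter table had windows for 4 of the 6 genes, with AQP6 and AQP11 missing.

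The 3 genes of the cluster were near the lower limit of counting in shControl and were higher in every shRNF25 library. AQP5 had normalized counts of 0, 2.05 and 1.08 in shControl (0, 2 and 1 reads) and of 20.0, 25.9 and 21.0 in shRNF25 (22, 28 and 22 reads). The lowest shRNF25 library lay far above the highest control library. The means were 1.04 ± 1.03 and 22.3 ± 3.12 (SD, n = 3 each), and the ratio of pooled reads after scaling was 20.9, with an exact 95% interval of 6.86 to 103.5 that covers counting error only. On the log2(normalized count + 1) scale, which understates changes of low genes, the difference was 3.64 with a standard error of 0.484.
AQP2, the vasopressin-regulated channel, had 0, 0 and 1.08 in shControl (1 read in all) and 10.0, 8.31 and 14.3 in shRNF25 (11, 9 and 15 reads). Its groups did not overlap. Scaled pooled reads gave a ratio of 30.4 (95% interval 5.11 to 1235), an interval too wide to set the size of the difference. The log2 difference was 3.19 with a standard error of 0.410.
AQP6 had 2.21, 2.05 and 1.08 in shControl (2, 2 and 1 reads) and reached 14.6, 9.24 and 10.5 in shRNF25 (16, 10 and 11 reads). All 3 shRNF25 libraries were above all 3 shControl libraries, with a ratio of 6.43 (95% interval 2.52 to 21.0) and a log2 difference of 2.16 (standard error 0.268). Summed over the 3 genes, the reads were 2, 4 and 3 in shControl and 49, 47 and 48 in shRNF25. The sum thus varied little among the shRNF25 libraries. The share of each gene in it rests on 9 to 28 reads per library, and its variation was not tested against counting error. In bulk RNA, more cells that express a gene and more RNA per cell cannot be told apart.

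**Figure D1:**
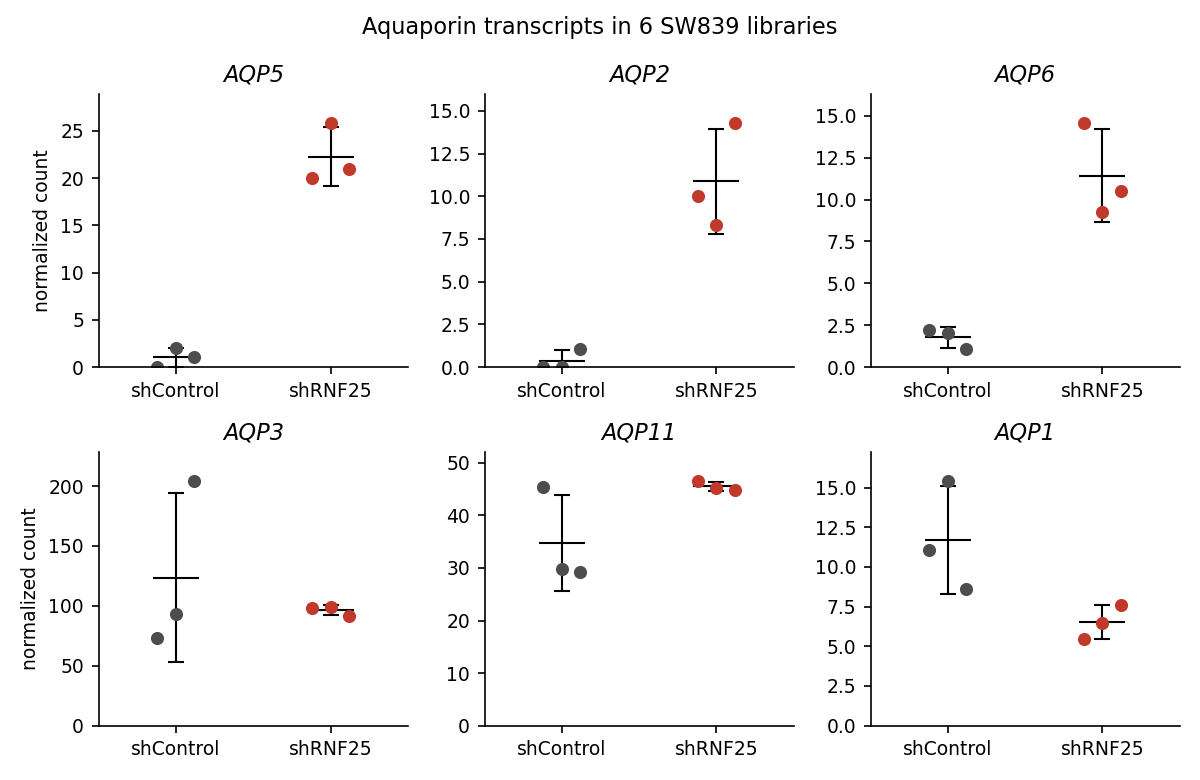
Normalized counts of the 6 aquaporin genes, 1 panel per gene with its own linear axis from 0. Points are libraries (grey, shControl; red, shRNF25), horizontal bars are group means and error bars are SDs (n = 3, cut at 0). AQP5, AQP2 and AQP6 lie near 0 in shControl and at 8.31 to 25.9 in shRNF25, AQP3 and AQP11 overlap between the groups, and AQP1 is lower in shRNF25.

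The genes on either side show how far this pattern extended. FAIM2, which encodes an inhibitor of Fas-mediated apoptosis, ends 46523 bases before AQP2 begins when read along the chromosome and lies on the minus strand (49866896 to 49904217). Its rise was already known when the aquaporins were chosen. FAIM2 went from 1.11, 2.05 and 2.16 normalized counts in shControl to 50.1, 30.5 and 41.9 in shRNF25. The log2 difference was 3.91 (standard error 0.277), and the ratio of scaled pooled reads was 22.9 (95% interval 9.58 to 71.8). The antisense RNA AC025154.2, named after its values were seen, runs on the minus strand from inside AQP5 across AQP2 (49951512 to 49962924). It went from 0, 0 and 1 reads to 18, 28 and 29 reads, a log2 difference of 4.22 (standard error 0.418) with a ratio of 65.2 (95% interval 11.3 to 2608). Both genes, like AQP5, passed the filter on low values only through their shRNF25 values, so they are described without a test.
Besides the aquaporins, 11 protein-coding genes start within 250 kb of AQP2, AQP5 or AQP6, and all 11 were tested. A gene was called where the limma adjusted p-value was below 0.05 and the fold change at least 1.5, which held for 8.65% of all tested genes in the upward and 7.10% in the downward direction. By these criteria 1 of the 11 was called higher, FAIM2, for which nothing is read from the call. CERS5, a ceramide synthase that starts 205.7 kb beyond the AQP5 start, was the 1 called lower. CERS5 fell by 0.61 on the log2 scale (limma standard error 0.127, adjusted p = 0.00986). Its call was lost with edgeR, quantile normalization and scaling to the library total (log2 fold changes of -0.58, -0.55 and -0.40, adjusted p = 0.0124, 0.0169 and 0.0710). It was also lost without shControl replicate 3, shRNF25 replicate 1 or shRNF25 replicate 2 (log2 fold changes of -0.53, -0.60 and -0.57, adjusted p = 0.0211, 0.0568 and 0.0618). Log2 fold changes were 0.45 for BCDIN3D, an RNA methyltransferase (adjusted p = 0.129), and -0.27 for RACGAP1, a cytokinesis regulator whose far end overlaps that of AQP6 (adjusted p = 0.164). GPD1, which makes glycerol 3-phosphate, had 13.3, 17.4 and 13.0 in shControl and 21.9, 22.2 and 27.6 in shRNF25 (log2 fold change 0.68, adjusted p = 0.0970), and was called higher under scaling to the library total (0.88, adjusted p = 0.0413). The remaining genes were not called, with log2 fold changes of -0.28 for FMNL3, -0.14 for NCKAP5L, -0.027 for TMBIM6, 0.053 for SMARCD1, 0.065 for ASIC1 and 0.32 for COX14. Non-coding genes listed in the same window, named after their values were seen, were AC025154.2, BCDIN3D-AS1, AC074032.1 and AC008147.2. BCDIN3D-AS1, antisense to BCDIN3D, had 18, 19 and 16 reads in shControl and 11, 11 and 6 in shRNF25 (log2 fold change -1.08, limma adjusted p = 0.0391). Its call was lost without any 1 library (adjusted p from 0.0502 to 0.151), with DESeq2 (0.0929), without a filter (0.0742), under scaling to the total (0.0702) and with the replicate block (0.0571). AC074032.1 and AC008147.2 had at most 9 reads in any library and were not tested, at log2 differences of 0.74 and 0.022.

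**Figure D2:**
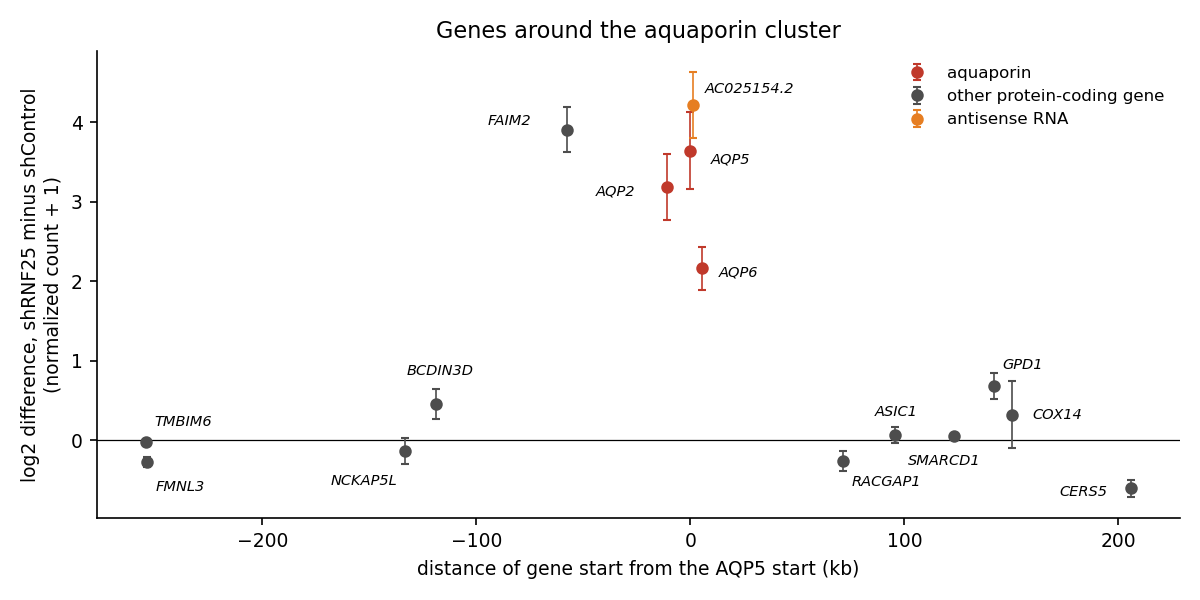
Log2 difference between shRNF25 and shControl (normalized count + 1, vertical axis) against the distance of each gene's start from the AQP5 start in kb. Points are the 3 aquaporins (red), the 11 other protein-coding genes (grey) and AC025154.2 (orange), and bars are standard errors of the difference of group means (n = 3 each). Values above 2 are seen for AQP2, AQP5, AQP6, AC025154.2 and FAIM2, and the other protein-coding genes lie between -0.61 and 0.68. Of the 4 listed non-coding genes of the window, AC025154.2 alone is drawn.

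To place these counts among all genes, genes with 3 reads or fewer in every shControl library were listed, which were 9440 of the 30267. The limit of 9 reads in every shRNF25 library was taken from AQP2 after its values were seen. It was met by 60 genes, or 0.636% of the 9440. Of these 60, 5 were AQP2, AQP5, AQP6, FAIM2 and AC025154.2. The members set the limit, so this count was not tested. Genes that changed in the opposite direction were not counted, and every shRNF25 library had more genes with a read than any shControl library.

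The annotation limits what some of these counts mean, because the strand used in counting is not given in the sources used here. AC025154.2 shares 204 exonic bases with AQP2 (4.74% of the AQP2 exons) and none with AQP5, although the gene bodies overlap by 1055 bases. A second antisense RNA, AC025154.1, which was not among the listed genes, covers another 560 exonic bases of AQP2. Without strand, reads of AQP2 and its antisense RNAs cannot be told apart in those stretches. At its far end AQP6 shares 137 exonic bases with the far more abundant RACGAP1 on the other strand, which had 1933 to 2480 reads per library. The part of RACGAP1 reads in the AQP6 counts was not tested. No 50-base word of AQP5, AQP3 or AQP11 transcripts occurred in a transcript of another gene on either strand. Of the AQP6 words, 1.45% occurred in transcripts of other genes on the same strand, spread over many genes, and 3.11% on the opposite strand. For AQP2 the opposite-strand share was 14.6%, all of it in its antisense RNAs, and no word was shared on the same strand. For AQP1, 25.1% of the words also occur in AC004691.2, an overlapping gene on the same strand that was not among those listed.

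AQP3, the basolateral water and glycerol channel, was the most abundant of the 6 genes. It had 73.0, 93.4 and 204.0 normalized counts in shControl and 98.4, 98.8 and 91.5 in shRNF25. The groups overlapped, and shControl replicate 3 alone lay far above the rest. The means were 123.4 ± 70.5 and 96.2 ± 4.11 (SD, n = 3 each), with a log2 difference of -0.21 (standard error 0.445) that became 0.22 without shControl replicate 3. AQP3 is on the minus strand of chromosome 9 from 33441154 to 33447633.
AQP11, the intracellular channel on chromosome 11 (77589391 to 77610355), had 45.3, 29.8 and 29.1 in shControl and 46.5, 45.3 and 44.8 in shRNF25. Control replicate 1 lay within the range of the knockdown libraries, and the other two control libraries lay below it. The log2 difference was 0.41 with a standard error of 0.203. AQP11 lies within the gene body of CLNS1A on the opposite strand but shares no exonic base with it.
AQP1, the proximal tubule water channel on chromosome 7 (30911694 to 30925516), had 11.1, 15.4 and 8.63 in shControl (10, 15 and 8 reads) and 5.47, 6.46 and 7.63 in shRNF25 (6, 7 and 8 reads). The groups did not overlap, but the highest shRNF25 and the lowest shControl library both held 8 reads. The log2 difference was -0.73 (standard error 0.253), and the ratio of scaled pooled reads was 0.553 (95% interval 0.304 to 0.985).

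Divided by exon length, the levels were ordered AQP3, AQP11, AQP1, AQP5, AQP6 and AQP2 in shControl, with means of 41.8, 14.5, 3.40, 0.554, 0.347 and 0.0836 normalized counts per kb. The libraries of AQP5, AQP6 and AQP2 overlapped with each other in that group, and those of AQP3, AQP11 and AQP1 did not. In shRNF25 the order was AQP3, AQP11, AQP5, AQP2, AQP6 and AQP1, with means of 32.6, 19.0, 11.8, 2.53, 2.23 and 1.90 per kb. AQP2, AQP6 and AQP1 overlapped there, and AQP5 stood above them at 10.6 to 13.7 and below AQP11 at 18.7 to 19.4. The chromosome 12 cluster supplied 0.911%, 2.98% and 1.22% of the summed per-kb level of the 6 genes in the shControl libraries and 22.5%, 24.3% and 24.1% in the shRNF25 libraries. The summed level itself ran from 47.3 to 84.9 per kb in shControl and from 68.4 to 71.7 in shRNF25. The groups overlapped there through shControl replicate 3, in which AQP3 made up 81.5% of the sum.

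**Figure D3:**
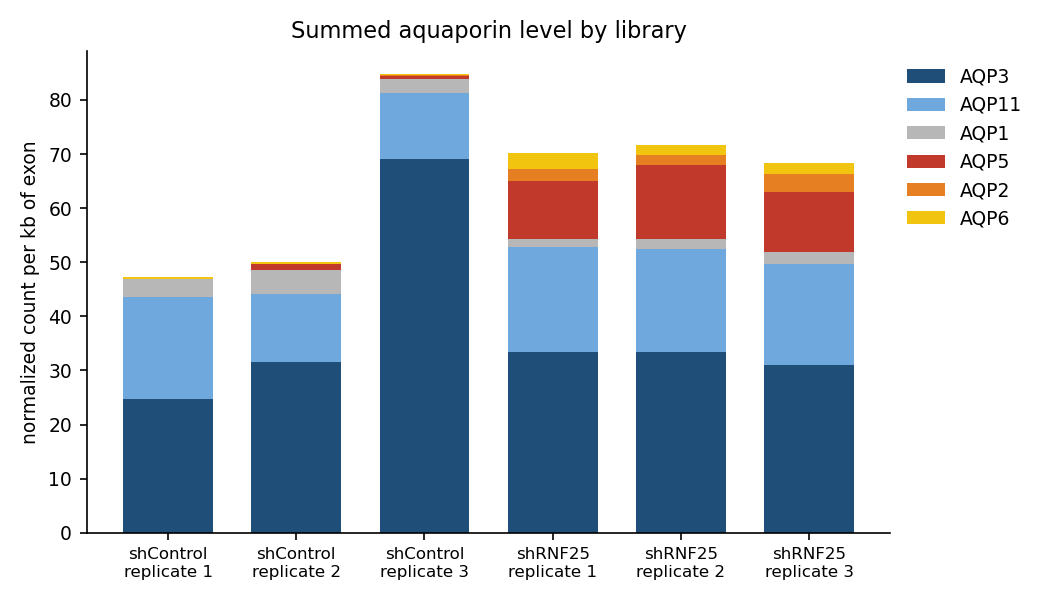
Normalized count per kb of exon (vertical axis from 0), stacked over the 6 aquaporin genes for each library. AQP3 and AQP11 fill most of every bar, and AQP5, AQP2 and AQP6 together supply 22.5% to 24.3% in the shRNF25 libraries against at most 2.98% in the shControl libraries.

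The filter on low values asked for 10 or more normalized counts in 3 or more libraries, and 3 of the 6 genes passed it (AQP3, AQP5 and AQP11). AQP1, AQP2 and AQP6 fell just short, each reaching 10 in 2 libraries. With the criteria given above, 1 of the 3 was called higher (AQP5) and 0 were called lower, against the 8.65% and 7.10% of the 16554 tested genes. At an unadjusted p below 0.05 the lower count was also 0 with limma, edgeR and DESeq2. Because the contrast chose the members, nothing is read from these counts. Every shRNF25 library was above every shControl library for 3 of the 6 members and below for 1 (AQP1). Over all 30267 listed genes, 15.5% were separated upward and 14.6% downward. Scaling each library to its total raised the median log2 fold change of tested genes from -0.013 to 0.19 and changed the calls over all genes from 1432 higher and 1175 lower to 2377 and 684. AQP3 was at -0.0086 under that scaling.

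The other aquaporin genes added few reads. Of 8 looked for, AQP7, AQP8 and AQP9 were listed, with at most 3 reads in any library. The pseudogene AQP7P1 had 5 to 17 reads and overlapped between the groups (log2 fold change 0.23, adjusted p = 0.741), and AQP7P2 and the antisense RNA AQP4-AS1 had at most 3 reads per library.

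The signalling and transport genes that act on aquaporins were read from 3 lists compiled by hand. In the list of vasopressin-cAMP signalling and AQP2 trafficking, 30 of 32 genes were tested, 0 were called higher, 3 were called lower and 27 were not called, which is 0% and 10% of the list beside 8.65% and 7.10% of all tested genes. Its median log2 fold change was -0.050, against -0.013 over all tested genes. The count called higher was also 0 with edgeR and DESeq2. At an unadjusted p below 0.05, 3 genes were higher and 9 lower with limma, 4 and 8 with edgeR, and 4 and 9 with DESeq2. Every shRNF25 library was above every shControl library for 4 of the 31 listed genes and below for 9, where the shares over all listed genes were 15.5% and 14.6%. The vasopressin receptor gene AVPR2, which acts upstream of AQP2, was too low to test, at 0, 0 and 3.24 normalized counts in shControl and 9.11, 6.46 and 0.953 in shRNF25.
PDE4B, a phosphodiesterase that breaks down cAMP, had 195.7, 175.4 and 178.1 in shControl and 52.9, 39.7 and 41.0 in shRNF25. It fell by 2.03 on the log2 scale (limma standard error 0.175, adjusted p = 0.000128). SNAP23, a SNARE protein of vesicle fusion, fell by 0.73 (adjusted p = 0.00846), and SIPA1, a GTPase-activating protein that binds AQP2, fell by 0.63 (adjusted p = 0.0127). Of these 3, PDE4B alone stayed called under scaling to the library total. SIPA1 also lost its call under quantile normalization (log2 fold change -0.53, adjusted p = 0.0291) and without any of shControl replicates 2 and 3 and shRNF25 replicates 1 to 3, with adjusted p from 0.0313 to 0.0640 or a fold change under 1.5. The catalytic subunits PRKACA and PRKACB, at 0.052 and -0.11 on the log2 scale, and GNAS, at -0.012, were not called.

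Of the 13 genes of the hypertonicity response, 11 were tested, 1 was called higher, 2 were called lower and 8 were not called (9.09% higher and 18.2% lower, beside 8.65% and 7.10% of all tested genes), with a median log2 fold change of -0.089. NFAT5, the transcription factor of this response, had a log2 fold change of -0.042 (limma standard error 0.199, adjusted p = 0.902). SGK1, a salt-responsive kinase, fell by 0.93 (adjusted p = 0.00986), and SLC6A6, the taurine transporter, fell by 0.60 (adjusted p = 0.0105). S100A4, a calcium-binding protein, rose from 79.6, 174.4 and 276.3 to 594.1, 426.7 and 512.8 (log2 fold change 1.69, limma standard error 0.373, adjusted p = 0.0124). The inositol transporter SLC5A3 and the aldose reductase gene AKR1B1, which accumulate osmolytes, were at 0.33 (adjusted p = 0.0528) and -0.22 (adjusted p = 0.522). The S100A4 call was lost without shRNF25 replicate 1 (adjusted p = 0.0642). SLC6A6 was lost under quantile normalization, scaling to the total and edgeR, and without shControl replicate 3 or shRNF25 replicate 2 or 3 (adjusted p from 0.0126 to 0.0756, with a fold change under 1.5 where p passed).

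All 20 genes of cell volume regulation were tested, of which 4 were called higher, 2 were called lower and 14 were not called (20% higher and 10% lower, beside the same 8.65% and 7.10%), with a median log2 fold change of -0.11. KCNN4, a calcium-activated potassium channel, had 428.9, 696.7 and 515.9 in shControl and 2223, 1857 and 1789 in shRNF25. It rose by a log2 fold change of 1.86 (limma standard error 0.177, adjusted p = 0.000194). SLC12A2, the sodium-potassium-chloride cotransporter of secretory epithelia, rose by 0.87 (adjusted p = 0.00100). WNK4, a kinase that controls such cotransporters, rose by 0.74 (adjusted p = 0.00320), and the chloride transporter gene CLCN3 by 0.61 (adjusted p = 0.00284). TRPV4, a cation channel opened by cell swelling, fell by 0.87 (adjusted p = 0.00430), and OXSR1, a kinase activated by WNK kinases, fell by 0.61 (adjusted p = 0.00747). The 5 LRRC8 genes, subunits of the volume-regulated anion channel, lay between -0.53 and 0.093 and none was called. OXSR1 lost its call under quantile normalization, under scaling to the total and without shControl replicate 1 (adjusted p = 0.0150, 0.0235 and 0.000630), each time because the change was under 1.5-fold.

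**Figure D4:**
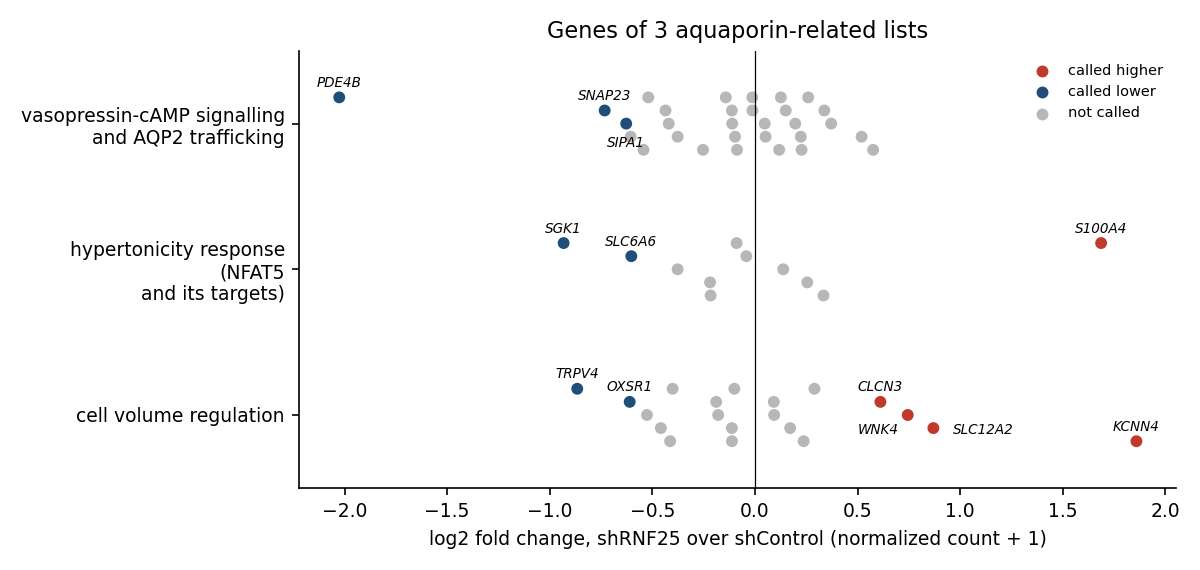
Log2 fold change of every tested gene (shRNF25 over shControl, normalized count + 1, horizontal axis) in 3 lists: 30, 11 and 20 points from top to bottom. Colours give the limma call (adjusted p below 0.05 and at least 1.5-fold). Called genes are named, and the largest changes are the fall of PDE4B to -2.03 and the rises of KCNN4 (1.86) and S100A4 (1.69).

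Transcription factors of epithelia that express aquaporins were measured as well. Of 16 looked for, 9 were tested, 1 was called higher (11.1%, beside 8.65% of all tested genes) and 0 were called lower, by limma as by edgeR and DESeq2. At an unadjusted p below 0.05, 2 genes were lower with limma, 1 with edgeR and 1 with DESeq2. FOXA2, a forkhead factor of lung and gut epithelium, had 149.2, 108.8 and 37.8 in shControl and 239.6, 235.5 and 219.2 in shRNF25 (log2 fold change 1.43, limma standard error 0.412, adjusted p = 0.0368). That call was lost without shControl replicate 2 or without any 1 of the shRNF25 libraries (adjusted p from 0.0632 to 0.122). GATA2 and GATA3, factors of collecting duct cells, were at 0.21 and -0.050. TFCP2L1, another factor on this list, fell by 0.58 (limma adjusted p = 0.0173). It was not called because the change was just under 1.5-fold. Markers of cells that normally carry these channels gave summed levels that overlapped between the groups. The 8 listed markers of collecting duct principal cells summed to 1247 to 1851 in shControl and 1334 to 1482 in shRNF25, with 0 of the 8 above the controls in every library and 1 below (TFCP2L1), where the shares over all listed genes were 15.5% and 14.6%. For intercalated cells, 6 markers summed to 27.7 to 35.4 and 27.7 to 29.5, and FOXI1, their defining factor, had a single read in each group. Of these 6, 0 were above the controls in every library and 2 below (ATP6V0D2 and RHCG). RHCG had 1, 1 and 1 reads in shControl and 1, 0 and 0 in shRNF25, so its separation rests on the scaling of single reads. The 6 listed proximal tubule markers summed to 5000 to 6973 and 5184 to 5646. Nearly all of it was ANPEP, an aminopeptidase, with means of 5985 and 5327. CUBN, SLC34A1, SLC5A2 and GGT1 were too low to test. For glandular and alveolar cells, 8 listed markers summed to 2143 to 10546 and 5317 to 5619, nearly all of it MUC5B, a mucin, and the surfactant gene SFTPC had at most 1 read per library. Of these 8, 1 was above the controls in every library (AGER, at 79.6, 123.1 and 86.3 against 144.0, 151.5 and 134.4) and 2 were below. BPIFA2, a salivary secreted protein, had 8.84, 4.10 and 145.7 against 0.911, 0 and 0, and PDPN, a marker of alveolar type I cells, 23.2, 6.16 and 6.48 against 5.47, 5.54 and 2.86. For PDPN the lowest shControl and the highest shRNF25 library both held 6 reads. The leukocyte list summed to 13.3 to 26.7 over all libraries. The fibroblast list summed to 1128 to 1303 and 880.1 to 1022, nearly all of it the collagen gene COL1A1 (means of 1177 and 913.6). The endothelial list summed to 489.4 to 695.1 and 494.1 to 645.1. It held the receptor KDR, which rose from a mean of 24.5 to 84.5. KDR was the 1 gene of 3 tested that limma called higher (33.3%, beside 8.65% of all tested genes). Of the 4 listed genes, KDR was above the controls in every library, and CDH5 and VWF were below. VWF, with means of 9.29 and 5.29, was too low to test. The cadherin CDH5 fell from a mean of 124.7 to 5.89. CDH5 passed the filter on low values only through its shControl values, so it is described without a test. The part of other cell types in the aquaporin values was not tested.

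The genes whose log2 values followed each tested member most closely over the 6 libraries were listed among 16553 genes. For AQP5 they were UNC13B, ALDH7A1 and AC125807.2, with Pearson r of 0.998 each, and 52 genes reached 0.99. For AQP11 they were EFR3A, CHIC1 and COL12A1 (0.996, 0.996 and 0.994), and for AQP3 LTBP3, MMP10 and RHOB (0.984, 0.980 and 0.976), which share its high value in shControl replicate 3. LTBP3, for example, had 6152 in that library and 3624 to 4378 in the other 5. With 6 points that share the group difference, these correlations only describe the libraries.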

How the data were processed

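Bulk RNA-seq of SW839 cells was used, 3 shRNF25 and 3 shControl libraries. The authors deposited normalized counts per gene symbol, a signal made by dividing each library's reads by 1 size factor. Submitters' processing notes name fastp, HISAT2, HTSeq and GRCh38. According to the methods, a stranded kit after ribosomal RNA depletion and DESeq2 were used. The annotation and counting strand are not given in the sources used here. Every value was a whole multiple of its library's smallest step (100% within 0.01 reads), so reads were recovered, 18647460 to 19943154 per library. The deposited factors equaled DESeq2's size factors.

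Log2(normalized count + 1) was fitted with limma 3.58.1 (eBayes with a trend, R 4.3.3) for 16554 genes with at least 10 in at least 3 libraries, with Benjamini-Hochberg adjustment. Genes with an adjusted p below 0.05 and at least 1.5-fold change, the study's criteria, were called. edgeR 4.0.16 (quasi-likelihood test) and DESeq2 1.42.0 on recovered reads were alternatives. The scripts were tested on simulated data. Ratios of reads have exact conditional 95% intervals, which cover counting error only, and reads are not independent molecules. Levels per kb use merged GENCODE 29 exons.

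Members and lists were chosen with earlier results of these data known. Named genes are the members, other aquaporin rows, called list genes with the 3 largest changes of each list, protein-coding genes starting within 250 kb of the cluster, and the 3 genes most correlated with each tested member. Further genes serve as examples. Replicates are labelled biological triplicates, and no further culture record was used.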

Additional observations from a re-analysis of the deposited data

How the results depend on the processing

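Low counts are the main limit. Without a filter on low values, 3 members were called higher (AQP2, AQP5 and AQP6), where all genes gave 1440 of 30267. With at least 50 in at least 3 libraries 0 members were called higher, because AQP5 was then not tested, and all genes gave 898 of 12755. Leaving out 1 library gave 1 to 2 members called higher, where AQP11 joined AQP5 without shControl replicate 1. With 1 library left out, all genes gave 748 to 1725 higher of 16554. The contrast chose the members, so nothing is read from these counts. No member was called lower under any of 16 alternatives. AQP1, which was lower in every shRNF25 library, failed the filter and could be called only in the setting without it. The log2 difference of AQP5 ranged from 2.18 (pseudocount of 5) to 4.40 (DESeq2), that of AQP2 from 1.56 to 3.92 and that of AQP6 from 1.27 to 2.40. That of AQP1 stayed between -0.91 and -0.52 and that of AQP11 between 0.21 and 0.61, and AQP3 ran from -0.52 to 0.22.

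In the vasopressin list, scaling to the total gave 1 higher and 1 lower gene, and leaving out 1 library 0 to 1 higher and 2 to 4 lower. In the hypertonicity list the lower count was 1 under quantile normalization, scaling to the total and edgeR, and 1 to 2 lower and 0 to 1 higher genes with 1 library left out (0 higher without shRNF25 replicate 1). In the volume list the lower count was 1 under quantile normalization and scaling to the total, and 1 to 3 with 1 library left out. Requiring a 2-fold change left 1 lower gene in the vasopressin list, 0 lower in the hypertonicity list, and 1 higher and 0 lower in the volume list by construction.

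The replicate numbers did not pair the libraries. Deviations of same-numbered libraries from their group means correlated at -0.064, -0.087 and 0.047, and no library correlated best with its own number. With the replicate number as a block, 1 member (AQP5) was called higher, and all genes gave 1398 higher and 1193 lower calls. The cause of changes not explained above was not tested.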
